A study of Homo sapiens with 6 samples.

Results

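The genes described here encode the nuclear-made protein subunits of the first 4 complexes of the mitochondrial respiratory chain, compared between the human lung cancer lines A549 and H23. They were chosen by symbol: NDUFA, NDUFB, NDUFC, NDUFS and NDUFV genes with a number, SDHA to SDHD, every UQCR gene, COX4 to COX8 genes, NDUFAB1 and CYC1. Of 75 matching symbols, 4 had no RefSeq protein-coding transcript and were left out, which gave 71 members among the 27968 genes of the deposited tables. Complex I had 38 of them, complex II 4, complex III 10 and complex IV 19. NDUFA4 and NDUFA4L2 were counted with complex IV, where the NDUFA4 protein is now placed.

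The respiratory chain passes electrons from NADH (complex I) and succinate (complex II) through coenzyme Q to complex III, cytochrome c and complex IV, which reduces oxygen. Complexes I, III and IV pump protons across the inner mitochondrial membrane, and ATP synthase uses that gradient. Most subunits are made from nuclear genes and imported, while a core of membrane subunits is made inside the mitochondrion; those mitochondrially encoded mRNAs were not analysed here. Several complex IV subunits have a second gene that is used mainly in muscle, testis or low oxygen.

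Both are established lines from lung adenocarcinomas that were grown without treatment, A549 in DMEM and H23 in RPM1640, each with FBS. Each group was 1 line, with 3 separate cultures a line and 1 ribosomal-RNA-depleted total RNA library a culture. The line and its medium cannot be told apart, and a difference below is one between these 2 lines only. In whole-culture RNA, fewer cells that express a gene and less of its RNA per cell cannot be told apart either.

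The libraries held 29395795 to 42421642 estimated counts in H23 and 23399562 to 25348083 in A549, of which the members took 0.909 to 1.13% in H23 and 0.623 to 0.636% in A549. Libraries of 1 line had rank correlations of 0.998 across genes, except that H23 replicate 1 stood at 0.977 with the other H23 libraries. H23 replicate 1 was the highest H23 library for 54 of the 66 members tested (81.8%) and for 43.8% of all genes tested. Calls below that change without this library are given both ways. Of 6 epithelial markers, the keratin genes KRT8 and KRT18 were abundant in every library, at 1461 CPM or more, and KRT7 was at 1.16, 1.303 and 1.08 CPM in H23 and 3514, 3562 and 3610.4 CPM in A549. KRT19 was at 3.96, 5.15 and 4.94 CPM in H23 and 60.3, 63.9 and 61.1 CPM in A549, CDH1 at 29.5, 42.3 and 44.3 CPM in H23 and 15.04, 14.98 and 13.1 CPM in A549, and EPCAM at 8.40, 5.55 and 6.47 CPM in H23 and 3.82, 3.91 and 3.10 CPM in A549. The blood cell markers PTPRC and CD3E lay at or below 0.0416 CPM, while CD14 stood at 2.30, 4.48 and 2.97 CPM in H23 and 3.66, 3.67 and 3.97 CPM in A549 and CD68 at 4.70, 8.72 and 8.497 CPM in H23 and 6.53, 5.43 and 5.48 CPM in A549, neither of which passed the test. The fibroblast marker DCN was at 0 in every library and COL1A1 lay at 17.8, 26.03 and 23.3 CPM in H23 and at 8.02, 7.75 and 8.92 CPM in A549. The distal lung markers SFTPA1 and SFTPC were at or near 0 in both lines, and NKX2-1 was at 2.83, 3.44 and 2.59 CPM in H23 and at 0 in A549.

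Most subunit mRNAs were more abundant in H23 than in A549, and 8 were more abundant in A549. CPM values, counts relative to the library total, scaled between libraries with TMM factors were compared with edgeR's quasi-likelihood test over 15426 genes, at a Benjamini-Hochberg adjusted p under 0.05. Of the 71 members, 66 had enough counts to be tested. In H23, 39 of them (59.1%) were higher, where 39.6% of all genes tested were. In A549, 8 (12.1%) were higher, where 37.6% of all genes tested were. The other 19 did not pass. The 47 members called in either direction were 71.2% of those tested, below the 77.2% of all genes, so a difference between the lines as such was not more frequent among them. The median log2 fold of A549 over H23 was -0.495 over the 66 members, from -3.55 for NDUFC2-KCTD14 to 1.13 for SDHA, and -0.029 over all genes tested.

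**Figure D1:**
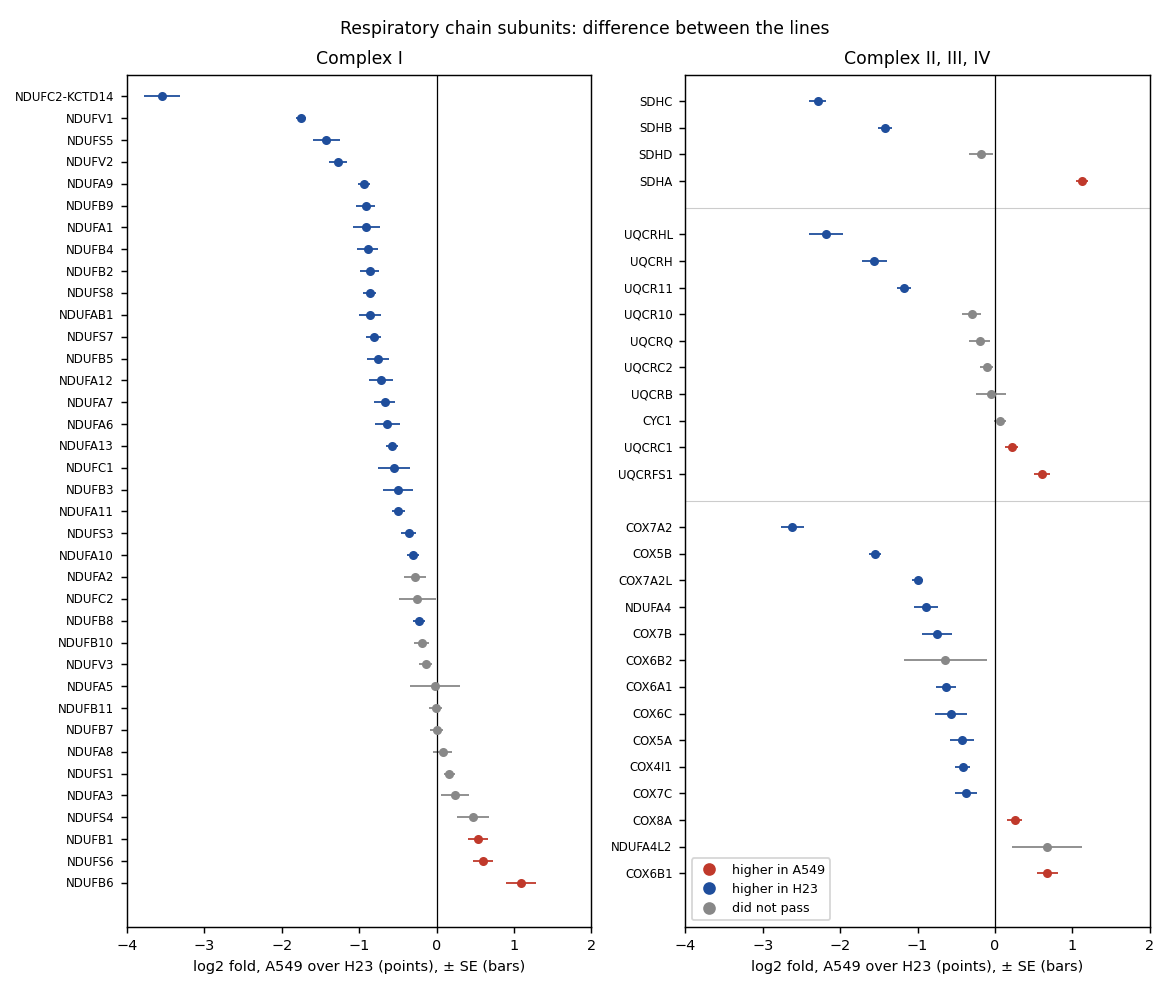
Log2 fold of A549 over H23 (horizontal axis) with its SE for 65 of the 66 tested members, by complex; blue points passed the test as higher in H23, red points as higher in A549, grey points did not pass. Most points lie left of 0, from -3.55 for NDUFC2-KCTD14, and SDHA at 1.13 lies farthest to the right.

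The differences were mostly small. At least 2-fold differences were called for 13 members in the H23 direction, where 25.6% of all genes had one, and for 2 members in the A549 direction, where 24.5% of all genes had one. The lines' libraries did not overlap for 52 members (78.8%), against 82.1% of all genes tested. The members' genes were short, with a median length of 831 bases against 2923 bases for all genes tested.

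The split between the lines moved with the scale and with H23 replicate 1. Without that library 15 members were higher in A549 and 41 in H23, where 44% and 44.6% of all genes were called, and the members' median log2 fold was -0.311. With a per-library trend of level on gene length removed, 14 were higher in A549 and 31 in H23 (38.8% and 38.5% of all genes), with a median of -0.265. On the authors' TPM values, with limma on log2(TPM + 1), 2 were higher in A549 and 55 in H23 (25.1% and 54% of all genes), with a median of -0.959. TPM is a share of all transcripts in a library, and genes under 400 bases, among them the RNAs RMRP and RNA5-8SN4, held 39.8 to 42.7% of TPM in A549 and 3.31 to 4.94% in H23. With TPM rescaled to the genes that have protein-coding transcripts, 14 were higher in A549 and 32 in H23 (42.3% and 35.3% of all genes), with a median of -0.267. The members' median was below that of all genes under each of these settings, as the plot of medians by setting shows. For this reason levels are compared between lines mainly in CPM, and TPM is used to compare genes within a library. Where TPM is set between the lines, it is given as an alternative scale.

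**Figure D2:**
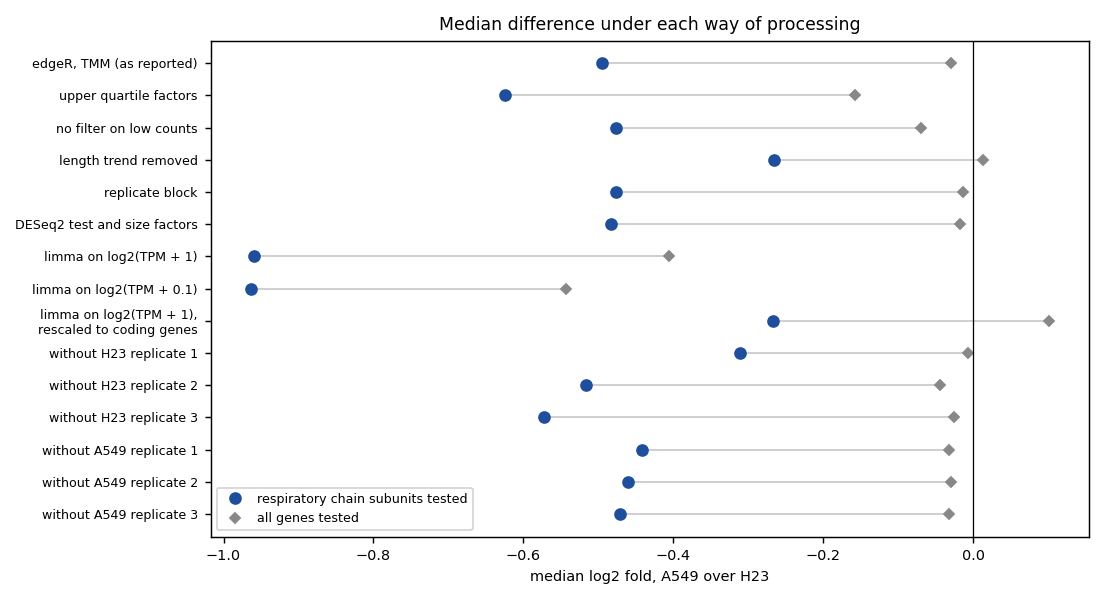
Median log2 fold of A549 over H23 (horizontal axis) for the tested members (blue circles) and for all genes tested (grey diamonds) under each way of processing (vertical axis). The members' median runs from -0.964 to -0.265 and lies left of the grey diamond in every line of the plot.

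Complex I takes electrons from NADH, and its NDUFS and NDUFV genes include those for the subunits that carry the flavin and the iron-sulphur clusters, beside some accessory subunits. Of these 11 genes, 7 were higher in H23, 1 was higher in A549 and 3 did not pass, with a median log2 fold of -0.81. NDUFV1 carries the flavin that oxidises NADH. Its level was 458, 488 and 469.8 CPM in the H23 libraries 1 to 3 and 139, 141 and 141 CPM in the A549 libraries 1 to 3. Every H23 library was above every A549 library, by 3.37-fold on average (log2 fold -1.75 ± 0.071, SE; edgeR adjusted p = 1.58e-06). NDUFS7, a core subunit next to the coenzyme Q site, differed less, with 46.8, 54.7 and 48.5 CPM in H23 and 29.7, 26.9 and 28.9 CPM in A549 (log2 fold -0.81 ± 0.097; edgeR adjusted p = 0.000228).

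The iron-sulphur subunits did not move as 1 block. NDUFV2, which sits beside NDUFV1, was at 197, 161 and 151 CPM in H23 and 70.99, 67.3 and 71.8 CPM in A549 (-1.28 ± 0.12 on the log2 scale, edgeR adjusted p = 6.08e-05). NDUFS8 lay at 221, 236 and 208 CPM in H23 and 120.2, 118 and 128 CPM in A549 (log2 fold -0.86 ± 0.084; edgeR adjusted p = 7.89e-05). Both were higher in every H23 library than in any A549 library. NDUFS1, the largest of these proteins, had 152, 161 and 161 CPM in H23 and 178, 179 and 174 CPM in A549. Its A549 libraries lay above all H23 libraries, but the difference did not pass (log2 fold 0.17 ± 0.07; edgeR adjusted p = 0.0629); without H23 replicate 1 it passed as higher in A549, at 0.14 (adjusted p = 0.00507), while on log2(TPM + 1) it turned to -0.38. NDUFS3, a core subunit without a cluster, was at 83.4, 69.1 and 70.4 CPM in H23 and 57.7, 58.03 and 58.3 CPM in A549 (log2 fold -0.36 ± 0.097; edgeR adjusted p = 0.0123). That call is close to the threshold: it was lost when any A549 library was left out (adjusted p = 0.0577 to 0.06) and the fold was 0.014 with the length trend removed.

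Among the accessory subunits with NDUFS or NDUFV symbols the directions were mixed. NDUFS5, which lies on the membrane arm, was at 377, 256 and 249 CPM in H23 and 115, 106 and 108 CPM in A549, 2.68-fold higher in H23 (edgeR adjusted p = 0.000236), with H23 replicate 1 well above its 2 sister libraries. NDUFS6, which stands close to the NADH-oxidising end, was at 38.4, 28.5 and 30.2 CPM in H23 and 51.1, 48.3 and 48.4 CPM in A549. It was the 1 gene of the 11 called higher in A549 (log2 fold 0.60 ± 0.13; edgeR adjusted p = 0.00393), and it did not pass on log2(TPM + 1), at 0.10 (adjusted p = 0.348). NDUFS4, a gene of inherited complex I deficiency, had 47.3, 28.9 and 29.1 CPM in H23 and 46.3, 51.8 and 48.2 CPM in A549. Its H23 replicate 1 fell among the A549 libraries and the other 2 H23 libraries lay well below them (log2 fold 0.47 ± 0.20; edgeR adjusted p = 0.0677; 0.75 and 1.48e-11 without H23 replicate 1). NDUFV3 had 35.5, 33.6 and 33.4 CPM in H23 and 30.9, 29.96 and 32.1 CPM in A549 and did not pass (log2 fold -0.14 ± 0.082; edgeR adjusted p = 0.159).

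**Figure D3:**
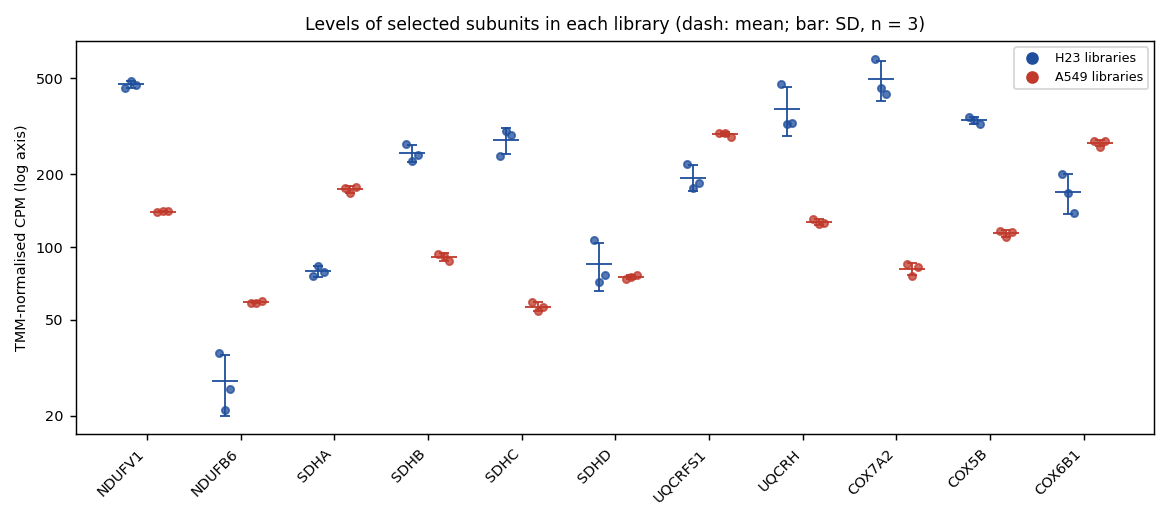
TMM-normalised CPM (log axis) of 11 members in each library, blue for H23 and red for A549; dashes are means and bars SD over 3 libraries. NDUFV1, SDHB, SDHC, UQCRH, COX7A2 and COX5B lie higher in every H23 library, NDUFB6, SDHA, UQCRFS1 and COX6B1 lie higher in every A549 library, and SDHD overlaps.

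The accessory NDUFA, NDUFB and NDUFC genes were mostly higher in H23. Of 26, counted without the NDUFA4 pair and the read-through gene, 16 were higher in H23, 2 were higher in A549 and 8 did not pass, with a median log2 fold of -0.495 and none reaching a 2-fold difference in the H23 direction. H23 replicate 1 was the highest H23 library for 24 of them. NDUFA9, an accessory subunit near the coenzyme Q site, had the largest difference in the H23 direction, at 243, 231 and 221 CPM in H23 and 122, 124 and 118 CPM in A549 (log2 fold -0.93 ± 0.075; edgeR adjusted p = 3.15e-05). NDUFB9 followed with 199, 153 and 159.7 CPM in H23 and 91.9, 94.6 and 84.5 CPM in A549 (log2 fold -0.92 ± 0.12; edgeR adjusted p = 0.000393). NDUFA1, a small membrane-arm subunit encoded on the X chromosome, was at 225, 137 and 165 CPM in H23 and 94.3, 96.5 and 89.8 CPM in A549 (log2 fold -0.91 ± 0.18; edgeR adjusted p = 0.00272). The 3 genes did not overlap between the lines. NDUFAB1, the mitochondrial acyl carrier protein, which also serves fatty acid synthesis, was at 146, 109 and 105 CPM in H23 and 67.04, 66.6 and 64.9 CPM in A549 (log2 fold -0.86 ± 0.14; edgeR adjusted p = 0.00101). The calls of NDUFB8 and NDUFB3 were less secure. NDUFB8 had a log2 fold of -0.22 ± 0.074 (edgeR adjusted p = 0.0272) and NDUFB3 one of -0.50 ± 0.19 (adjusted p = 0.0496). Neither call held when any A549 library was left out (adjusted p = 0.0983 to 0.136 for NDUFB8 and 0.103 to 0.148 for NDUFB3), and with the length trend removed NDUFB8 turned to 0.15 and NDUFB3 stood at -0.11 (adjusted p = 0.502). Both were also lost without a filter (0.0627 and 0.0502) and on rescaled TPM (0.296 and 0.136), and NDUFB8 with the replicate block (0.0853).

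NDUFB6 and NDUFB1, both small membrane-arm subunits, were the accessory genes higher in A549. NDUFB6 was at 36.5, 21.2 and 25.8 CPM in H23 and 58.8, 58.9 and 59.7 CPM in A549, 2.12-fold higher in A549 (log2 fold 1.09 ± 0.19; edgeR adjusted p = 0.00174). NDUFB1 was at 32.2, 29.04 and 23.7 CPM in H23 and 42.9, 41.7 and 38.5 CPM in A549 (log2 fold 0.54 ± 0.13; edgeR adjusted p = 0.00731). Neither overlapped between the lines. NDUFB1 did not pass on log2(TPM + 1), at 0.051 (adjusted p = 0.639), while NDUFB6 passed in the same direction under every setting tried.

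NDUFA2, NDUFB10, NDUFB11, NDUFB7, NDUFA8, NDUFA3, NDUFA5 and NDUFC2 were the 8 accessory genes that did not pass. Each differed by less than 0.3 on the log2 scale. NDUFA2 was at 66.6, 50.7 and 46.8 CPM in H23 and 45.9, 42.6 and 46.3 CPM in A549 (log2 fold -0.28 ± 0.14). NDUFB10 was at 104, 90.8 and 84.99 CPM and 83.7, 79.7 and 81.7 CPM (log2 fold -0.19 ± 0.098). Both lay lower in every A549 library than in any H23 library. NDUFB11 had 98.2, 85.9 and 85.4 CPM in H23 and 89.5, 91.3 and 86.4 CPM in A549 (log2 fold -0.013 ± 0.088). NDUFB7 had 53.00, 47.3 and 49.1 CPM and 49.5, 49.5 and 50.8 CPM (log2 fold 0.0041 ± 0.082), and NDUFA8 had 58.99, 49.5 and 44.04 CPM and 53.3, 55.9 and 52.04 CPM (log2 fold 0.08 ± 0.12). The lines overlapped for these 3. Without H23 replicate 1, NDUFA8 passed as higher in A549 (0.20, edgeR adjusted p = 0.00239) and NDUFB10 as higher in H23 (-0.11, adjusted p = 0.0452).

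NDUFA3, NDUFA5 and NDUFC2 overlapped between the lines, with H23 replicate 1 above every A549 library in all 3. NDUFA5 was at 82.6, 35.7 and 37.7 CPM in H23 and 52.9, 49.9 and 50.96 CPM in A549, so the A549 libraries lay between the first and the other 2 H23 libraries (log2 fold -0.021 ± 0.32); without H23 replicate 1 the fold was 0.47 and passed as higher in A549 (edgeR adjusted p = 2.08e-08). NDUFA3 stood at 30.5, 21.99 and 18.5 CPM in H23 and 28.8, 26.9 and 28.02 CPM in A549 (log2 fold 0.24 ± 0.18, and 0.47 without H23 replicate 1, edgeR adjusted p = 2.58e-06). With the length trend removed NDUFA3 turned to -0.48, so its direction is not settled. NDUFC2 had 156, 83.5 and 89.7 CPM in H23 and 91.02, 86.95 and 99.8 CPM in A549 (log2 fold -0.25 ± 0.24). Its reads were divided with the read-through gene NDUFC2-KCTD14, described next, so its overlap and its result are uncertain.

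NDUFC2-KCTD14 is a read-through gene that joins NDUFC2 to its neighbour KCTD14, and it had the largest fold of all members. It stood at 31.1, 47.5 and 37.3 CPM in H23 and 2.54, 3.91 and 3.45 CPM in A549, 11.7-fold higher in H23 (log2 fold -3.55 ± 0.23; edgeR adjusted p = 1.16e-05). KCTD14 itself was at 2.67, 3.01 and 3.48 CPM in H23 and 0.332, 0.24 and 0.259 CPM in A549. The read-through shares exons with NDUFC2, so how reads were divided between the 2 entries was the quantifier's estimate. The values of both genes are uncertain for that reason. The read-through's share of the TPM of the pair was 17.4, 37.6 and 30.6% in H23 and 2.81, 4.55 and 3.55% in A549.

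Complex II, succinate dehydrogenase, had subunits that went in opposite directions. It holds 4 nuclear-encoded proteins and no mitochondrially encoded one. SDHA, the flavoprotein that oxidises succinate, was at 75.9, 83.9 and 78.5 CPM in H23 and 175, 168 and 178 CPM in A549. Every A549 library lay above every H23 library, 2.19-fold on average (log2 fold 1.13 ± 0.079; edgeR adjusted p = 1.61e-05). None of the other 3 subunits was called higher in A549. SDHB, the iron-sulphur subunit that takes the electrons from SDHA, was at 266, 227 and 240.2 CPM in H23 and 93.7, 92.1 and 87.6 CPM in A549, 2.68-fold higher in H23 (log2 fold -1.42 ± 0.089; edgeR adjusted p = 9.64e-06). SDHC, a membrane anchor that forms the coenzyme Q site with SDHD, was at 238, 302 and 290.5 CPM in H23 and 59.1, 54.5 and 56.3 CPM in A549, 4.89-fold higher in H23 (log2 fold -2.29 ± 0.11; edgeR adjusted p = 3.79e-06). Neither overlapped between the lines, and SDHA, SDHB and SDHC kept their direction and call under every setting tried. SDHD, the other anchor, was at 107, 71.4 and 76.7 CPM in H23 and 73.6, 75.4 and 76.6 CPM in A549. Those values overlapped and did not pass (log2 fold -0.18 ± 0.16; edgeR adjusted p = 0.331). On the deposited TPM every H23 library lay above every A549 library for SDHD. The sign of its fold changed under other settings, as given below.

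Within a library, SDHA made up 6.07, 7.38 and 6.71% of the summed TPM of the 4 genes in H23 and 27.4, 26.6 and 28.2% in A549. SDHC went from 22.9% ± 3.8 (SD, n = 3) in H23 to 8.70% ± 0.28 in A549, SDHB from 55.1% ± 1.9 to 38.6% ± 1.2, and SDHD from 15.2% ± 2.6 to 25.3% ± 0.73. SDHA had the lowest TPM of the 4 in each H23 library, and SDHC had the lowest in each A549 library, while SDHB was highest in all 6. SDHA has near-identical copies that are listed as genes of their own, SDHAP1, SDHAP2 and SDHAP3. SDHAP2 was lower in A549, at 25.3, 24.8 and 28.9 CPM in H23 and 11.97, 11.1 and 12.4 CPM in A549. SDHAP1 and SDHAP3 were higher in A549, as SDHA was, with log2 folds of 0.62 ± 0.20 and 0.88 ± 0.21 (edgeR adjusted p = 0.0252 and 0.00683). Both stayed at or below 7.24 CPM in every library. The SDHA value could take in or lose reads from these copies and is uncertain to that extent.

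**Figure D4:**
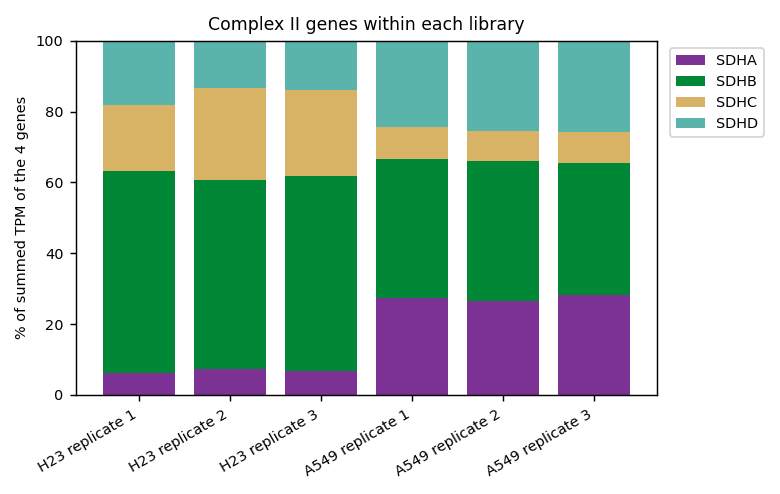
Share of the summed TPM of SDHA, SDHB, SDHC and SDHD taken by each gene (vertical axis, %) in each library (bars). SDHA takes 6.07 to 7.38% in the H23 libraries and 26.6 to 28.2% in the A549 libraries, and SDHC is smaller in A549.

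The promoters of SDHA and SDHB are shown because these partner subunits moved in opposite directions. Promoters came from RefSeq (GRCh38.p14), matched by symbol for 57 of the 71 members, and the 250 bases before each start site were searched on both strands for the NRF1 (nuclear respiratory factor) consensus, GCGCA and GCGC with any 1 base (N) between them, for CCGGAAG, a core bound by ETS factors such as GABP, and for AAGATGGCG, bound by YY1. None of the 3 motifs contains another. Capitals mark the matches, and both sequences run 5′ to 3′ along the gene and end at the base before the start site. SDHA lies at chr5:218070-218319 on the plus strand and SDHB at chr1:17054033-17054282 on the minus strand.
SDHA: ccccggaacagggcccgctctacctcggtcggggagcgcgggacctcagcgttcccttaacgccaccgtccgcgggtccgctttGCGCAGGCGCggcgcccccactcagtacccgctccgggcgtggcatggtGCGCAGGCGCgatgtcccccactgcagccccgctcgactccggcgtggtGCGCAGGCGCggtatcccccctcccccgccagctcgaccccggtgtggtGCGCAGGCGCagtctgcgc
SDHB: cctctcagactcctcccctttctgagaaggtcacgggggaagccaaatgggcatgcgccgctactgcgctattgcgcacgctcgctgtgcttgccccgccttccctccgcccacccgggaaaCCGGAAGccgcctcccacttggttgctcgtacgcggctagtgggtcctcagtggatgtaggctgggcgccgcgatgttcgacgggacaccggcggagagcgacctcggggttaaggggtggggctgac
The SDHA window held 4 copies of the NRF1 letters, the first of them 166 bases before the start, and the SDHB window held 1 ETS core, 128 bases before the start. NRF1 letters were in 11 of the 57 member windows (19.3%) and in 5.53% of 27305 promoters of the same length. The ETS core was in 14 member windows (24.6%) and in 8.82% of all. YY1 letters were in none of the 57 and in 0.641% of all. At so low a share, none in 57 windows does not set the members apart, and bases after the start were not searched.

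Both motifs were found among members of either direction. NRF1 letters were in 3 of the 8 windows of members higher in A549, in 5 of 31 higher in H23 and in 2 of 15 that did not pass. The ETS core was in 2 of 8, 8 of 31 and 4 of 15 of the same groups. These are counts of letters in a window and say nothing of binding in these cells.

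Complex III, which passes electrons from coenzyme Q to cytochrome c, had the smallest summed difference. Of its 10 genes, 3 were higher in H23, 2 were higher in A549 and 5 did not pass, with a median log2 fold of -0.15. UQCRFS1, the Rieske iron-sulphur protein, was at 221, 176 and 185 CPM in H23 and 298, 298 and 287 CPM in A549. All A549 libraries lay above all H23 libraries (log2 fold 0.60 ± 0.10; edgeR adjusted p = 0.00138), and on log2(TPM + 1) the difference was 0.069 and did not pass (adjusted p = 0.412). CYC1, cytochrome c1, the other electron-carrying subunit made in the nucleus, was at 248, 228 and 221 CPM in H23 and 238, 247 and 243 CPM in A549. It overlapped and did not pass (log2 fold 0.061 ± 0.077; edgeR adjusted p = 0.492); without H23 replicate 1 it passed at 0.11 (adjusted p = 0.0249), and on log2(TPM + 1) it passed in the other direction, at -0.48 (adjusted p = 0.000329).

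The UQCRFS1 promoter is printed because this gene, like SDHA, was higher in A549 and carried the NRF1 letters. It covers chr19:29213152-29213401 on the minus strand (GRCh38.p14, RefSeq), and the capitals are the NRF1 letters as they read on the opposite strand, 31 bases before the start.
UQCRFS1: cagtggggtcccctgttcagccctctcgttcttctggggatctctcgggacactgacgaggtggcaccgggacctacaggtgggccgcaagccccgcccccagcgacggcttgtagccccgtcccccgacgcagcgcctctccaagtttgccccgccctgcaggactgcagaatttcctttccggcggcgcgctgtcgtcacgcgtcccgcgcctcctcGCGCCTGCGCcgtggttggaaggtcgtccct
This window held 1 match, against the 4 of SDHA. NRF1 letters were also in windows of genes higher in H23, among them NDUFA9 and NDUFB4.

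The core proteins of complex III, which hold no electron carrier, differed little. UQCRC1 was at 153, 175 and 163 CPM in H23 and 187, 188 and 196 CPM in A549 (log2 fold 0.22 ± 0.08; edgeR adjusted p = 0.0422). It passed narrowly, was lost with upper quartile factors (0.086, adjusted p = 0.358) and without H23 replicate 3 or any A549 library (adjusted p = 0.0795 to 0.109), and turned to -0.33 on log2(TPM + 1). UQCRC2 was at 233, 205 and 207 CPM in H23 and 206, 201 and 193 CPM in A549, overlapping, with a log2 fold of -0.11 ± 0.083 that did not pass.

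Of the small complex III subunits, UQCRH, its near-copy UQCRHL and UQCR11 were higher in H23 and the others did not pass. UQCRH, the hinge protein beside cytochrome c1, was at 472, 324 and 326 CPM in H23 and 131, 124 and 126 CPM in A549, 2.94-fold higher in H23 (log2 fold -1.56 ± 0.16; edgeR adjusted p = 0.000109). UQCRHL was at 41.3, 23.6 and 30.2 CPM in H23 and 7.52, 6.75 and 6.68 CPM in A549 (log2 fold -2.18 ± 0.22; edgeR adjusted p = 9.14e-05). The 2 genes share reads, so the UQCRHL value, which was 9.51% ± 1.1 (SD, n = 3) of the pair's TPM in H23 and 6.45% ± 0.27 in A549, is uncertain. UQCR11 was at 145, 142 and 128 CPM in H23 and 58.98, 61.3 and 63.5 CPM in A549 (log2 fold -1.17 ± 0.086; edgeR adjusted p = 1.99e-05). H23 was higher in every library for all 3.

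UQCR10 was at 90.6, 72.1 and 68.6 CPM in H23 and 65.96, 61.6 and 60.5 CPM in A549 and narrowly did not pass (log2 fold -0.30 ± 0.12; edgeR adjusted p = 0.0586); it passed without H23 replicate 1, at -0.17 (adjusted p = 0.00432). UQCRQ was at 157, 117 and 115 CPM in H23 and 115, 113 and 112 CPM in A549 (log2 fold -0.20 ± 0.13). UQCRB was at 200.02, 125.3 and 121 CPM in H23 and 149, 144 and 137 CPM in A549 (log2 fold -0.052 ± 0.20), and passed as higher in A549 without H23 replicate 1 (0.22, edgeR adjusted p = 0.000155). In UQCRB and UQCRQ the first H23 library lay above all A549 libraries and the lines overlapped.

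Complex IV, cytochrome c oxidase, had mostly genes higher in H23. Of its 19 genes, 14 were tested: 10 were higher in H23, 2 were higher in A549 and 2 did not pass, with a median log2 fold of -0.598. COX7A2 had the largest fold, at 604, 456 and 432 CPM in H23 and 84.9, 75.8 and 82.6 CPM in A549, 6.14-fold higher in H23 (log2 fold -2.62 ± 0.15; edgeR adjusted p = 6.47e-06). COX5B, a zinc-binding subunit on the matrix side, was at 346, 335 and 323 CPM in H23 and 117, 110.1 and 116 CPM in A549, 2.93-fold higher in H23 (log2 fold -1.55 ± 0.074; edgeR adjusted p = 3.1e-06). Both lay far apart between the lines, and the H23 spread was wider for COX7A2 than for COX5B.

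The COX5B promoter is given as an example of a gene higher in H23 with an ETS core. It covers chr2:97645812-97646061 on the plus strand (GRCh38.p14, RefSeq), and the capitals mark the ETS core 37 bases before the start.
COX5B: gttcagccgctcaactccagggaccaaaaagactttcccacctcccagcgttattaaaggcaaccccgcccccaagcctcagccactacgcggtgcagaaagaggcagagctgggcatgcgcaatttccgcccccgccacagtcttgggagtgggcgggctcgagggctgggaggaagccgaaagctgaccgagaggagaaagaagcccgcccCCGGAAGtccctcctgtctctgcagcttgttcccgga
SDHB, also higher in H23, carries the same letters in the window shown above. So do the windows of COX6B1 and COX8A, which were higher in A549.

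COX4I1, COX5A, COX6A1, COX7B and NDUFA4 differed by smaller amounts in the same direction. COX4I1, whose protein is the largest nuclear-made subunit, was at 332, 279 and 275 CPM in H23 and 223, 214 and 227 CPM in A549 (log2 fold -0.42 ± 0.096; edgeR adjusted p = 0.00606), and was lost with the length trend removed, at -0.04 (adjusted p = 0.599). COX5A was at 176, 129.6 and 116 CPM in H23 and 105, 100.5 and 107 CPM in A549 (log2 fold -0.43 ± 0.16; edgeR adjusted p = 0.0383). Leaving out any A549 library ended the COX5A call (adjusted p = 0.103 to 0.126), as did removing the length trend (-0.043, adjusted p = 0.714). COX6A1 was at 430.2, 356 and 310.4 CPM in H23 and 237, 229.7 and 241 CPM in A549 (log2 fold -0.63 ± 0.13; edgeR adjusted p = 0.00286). COX7B was at 221, 151 and 129 CPM in H23 and 104, 94.9 and 98.6 CPM in A549 (log2 fold -0.75 ± 0.20; edgeR adjusted p = 0.00998). NDUFA4, the subunit once assigned to complex I, was at 383, 279 and 254 CPM in H23 and 167, 159 and 167 CPM in A549 (log2 fold -0.90 ± 0.16; edgeR adjusted p = 0.00154). None of these 5 overlapped between the lines, and the first H23 library was the highest for each of them. COX6C and COX7C were also called higher in H23, at -0.56 and -0.38 on the log2 scale, with edgeR adjusted p = 0.0386 and 0.0497. Both calls were lost when any A549 library was left out (adjusted p = 0.0962 to 0.115 and 0.126 to 0.161), and the COX7C call also without H23 replicate 2 (0.0625). The COX6C call ended with the length trend removed (-0.18, adjusted p = 0.335), the COX7C call without a filter (0.0586), and both on rescaled TPM (0.101 and 0.28).

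COX6B1 and COX8A were the complex IV genes higher in A549. COX6B1, a subunit on the cytochrome c side, was at 201, 167 and 138 CPM in H23 and 274, 261 and 274 CPM in A549 (log2 fold 0.68 ± 0.14; edgeR adjusted p = 0.00342), and did not pass on log2(TPM + 1), at 0.18 (adjusted p = 0.186). COX8A was at 209, 195 and 171 CPM in H23 and 239, 218 and 228 CPM in A549 (log2 fold 0.25 ± 0.097; edgeR adjusted p = 0.0456). The lines did not overlap for either gene. The COX8A call was lost with upper quartile factors (0.13, adjusted p = 0.286) and without H23 replicate 2, H23 replicate 3 or any A549 library (adjusted p = 0.0736 to 0.136), and COX8A turned to -0.25 on log2(TPM + 1).

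The subunit genes with a second, tissue-bound copy used 1 copy in both lines. COX4I2 and COX7A1, the genes of the lung or low-oxygen form and of the heart and muscle form, had at most 0.259 CPM in any library. COX6A2 and COX7B2 were at 0 in all 6 libraries and COX8C had 0.0431 CPM in 1 library; 3 counts, taken as the limit that a count of 0 allows, equal 0.0707 to 0.128 CPM depending on the library. These 5 were the members not tested. COX6B2 was detected at 0.977, 0.334 and 0.541 CPM in H23 and 0.208, 0.639 and 0.345 CPM in A549, and NDUFA4L2, a gene known to respond to low oxygen, at 0.185, 0.668 and 0.588 CPM in H23 and 0.623, 0.799 and 0.862 CPM in A549. Both overlapped between the lines and did not pass (edgeR adjusted p = 0.302 and 0.209), and both stayed under 1% of the TPM of their pair in every library.

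Among the COX7A genes the balance differed between the lines. COX7A2L encodes the related protein that helps complexes III and IV associate, and was at 219, 216 and 218 CPM in H23 and 109, 110.3 and 107 CPM in A549 (log2 fold -1.0001 ± 0.068; edgeR adjusted p = 1.43e-05). Of the TPM of COX7A1, COX7A2 and COX7A2L together, COX7A2 took 83.6, 79.6 and 78.5% in H23 and 59.0, 56.2 and 58.7% in A549. COX7A2L took the rest, apart from COX7A1 at 0.165% or less. In CPM, which does not divide by length, the COX7A2 share was 69.2% ± 3.6 (SD, n = 3) in H23 and 42.6% ± 1.6 in A549.

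Summed over the members of a complex, H23 had more reads for each complex, and complex III differed least. The complex I sum was 4896, 4244 and 4132 CPM in H23 and 2673, 2623 and 2638 CPM in A549, a ratio of A549 to H23 of 0.598. The ratio was 0.578 for complex II, 0.846 for complex III and 0.622 for complex IV. No A549 sum reached the lowest H23 sum in any complex, and complex II was the most even among the H23 libraries, at 686 ± 1.5 CPM (SD, n = 3) against 397 ± 6.3 CPM in A549. Its single genes were less even in H23, with SDHC at 238, 302 and 290.5 CPM and SDHD at 107, 71.4 and 76.7 CPM. On the deposited TPM the ratios were 0.441, 0.367, 0.474 and 0.460 in the order of the complexes. A sum is carried by its most abundant genes, and in complex II it adds SDHA, higher in A549, to SDHB and SDHC, higher in H23.

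**Figure D5:**
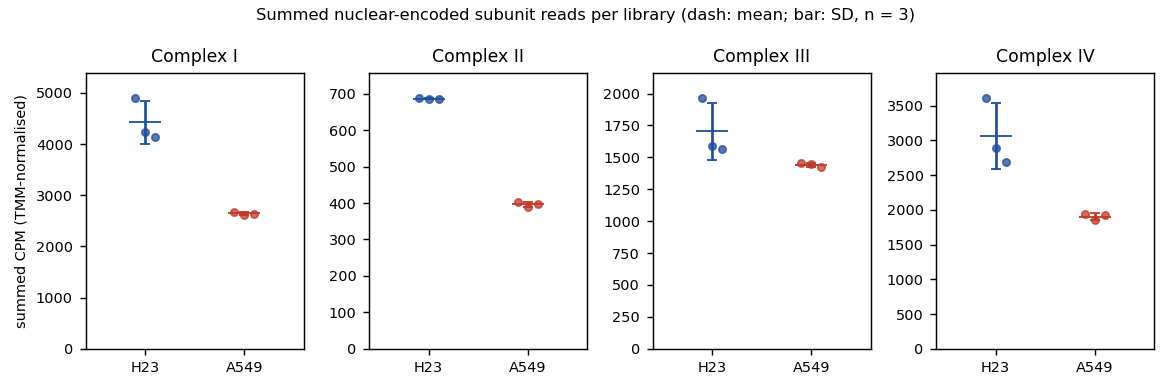
Summed TMM-normalised CPM of the members of each complex (vertical axis, from 0) in each H23 (blue) and A549 (red) library, with mean and SD over 3 libraries. Every H23 library lies above every A549 library in all 4 panels, least so for complex III, and H23 replicate 1 is the highest point for complexes I, III and IV.

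The division of member mRNA among the complexes depended on the scale. Of the members' summed TPM, complex I took 42.5% ± 0.53 (SD, n = 3) in H23 and 41.5% ± 0.27 in A549, complex III 12.04% ± 0.31 and 12.67% ± 0.079, and complex IV 42.5% ± 0.87 and 43.4% ± 0.35. Complex II took 2.96% ± 0.29 in H23 and 2.40% ± 0.0061 in A549. Of the members' summed CPM, complex I took 44.9% ± 0.849 in H23 and 41.4% ± 0.14 in A549, complex II 7.001% ± 0.738 in H23 and 6.21% ± 0.0315 in A549, complex III 17.2% ± 0.357 in H23 and 22.6% ± 0.308 in A549 and complex IV 30.9% ± 1.34 in H23 and 29.8% ± 0.414 in A549. Complex III thus took a larger share in every A549 library than in any H23 library on both scales. With 3 libraries against 3, an exact two-sided permutation test cannot go below p = 0.1, so no p is given for these sums and shares.

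Compared per length within a library, subunit mRNAs of 1 complex spanned a wide range of levels. In complex I the highest was NDUFS5 in each H23 library, at 1398, 1024 and 1011 TPM, and NDUFA1 in each A549 library, at 320.5, 335 and 324 TPM. The read-through gene NDUFC2-KCTD14 was left out of this order. It stood at 21.04, 35.06 and 27.6 TPM in H23 and 1.2, 1.87 and 1.77 TPM in A549. Of the other genes, NDUFA5 was the lowest in all 6 libraries. It was at 22.4, 10.6 and 11.2 TPM in H23 and 10.3, 9.54 and 10.4 TPM in A549. Among these other genes the highest was 62.5 to 96.6 times the lowest in H23 and 31.1 to 35.1 times in A549.

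In complex III UQCRH was the highest in 5 libraries, and UQCRFS1 was in A549 replicate 2. The A549 levels of UQCRH, 303, 292 and 311 TPM, and of UQCRFS1, 299, 297 and 304 TPM, did not differ beyond their spread over libraries. In H23 the same genes stood at 1529.5, 1127 and 1144 and 309, 268 and 283 TPM. UQCRHL was left out of the complex III order. It stood at 166, 102 and 133 TPM in H23 and 21.9, 19.9 and 20.6 TPM in A549. Of the other complex III genes, UQCRB was the lowest in all 6 libraries. In complex IV the highest were COX7A2 or COX5B in H23 and COX7C in A549, and NDUFA4 was the lowest of the constitutive genes in all 6. These orders rest on the gene lengths that the quantifier assigned, which are long for NDUFA5 (5586 bases) and UQCRB (4829 bases). NDUFA4, at 2058 bases, had the longest assigned length in complex IV.

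The transcript that carried a subunit's mRNA seldom differed between the lines. Of the members, 32 had more than 1 RefSeq transcript and 39 had 1. The same transcript had the largest deposited isoform percentage in all 6 libraries for 30 of the 32, and no member had 1 leading transcript in all H23 libraries and another in all A549 libraries. The exceptions were NDUFC1 and NDUFS5, which varied among libraries of 1 line. For NDUFS5, 1 of its 2 transcripts took 48.9 to 53.4% in every library, near an even split, and the other led in A549 replicate 3. The share of the leading NDUFB8 transcript was 80.8, 87.6 and 89.01% in H23 and 93.7, 96.9 and 96.7% in A549, and that of UQCRB was 89.2, 88.7 and 90.0% in H23 and 98.3, 98.6 and 98.6% in A549. The leading SDHA transcript fell within 89.2 to 96.3% in all libraries.

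ATP synthase uses the gradient that the chain builds. Of its 18 listed genes, 14 were higher in H23, 0 were higher in A549 and 4 did not pass, where 39.6% of all genes tested were higher in H23 and 37.6% in A549, with a median log2 fold of -0.80. ATP5F1D, the delta subunit of the rotor stalk, was at 95.4, 93.4 and 90.5 CPM in H23 and 17.04, 16.5 and 15.99 CPM in A549 (log2 fold -2.50 ± 0.081; edgeR adjusted p = 6.86e-07). ATP5PF was at 167, 96.9 and 96.7 CPM in H23 and 33.96, 32.03 and 29.8 CPM in A549, and ATP5F1E at 702, 452 and 418 CPM in H23 and 168, 164 and 162 CPM in A549. H23 was higher in every library for these 3 genes. H23 replicate 1 was the highest H23 library for 17 of the 18.

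Assembly factors, the proteins that build the complexes went in both directions. Of all genes tested, 37.6% were higher in A549 and 39.6% in H23. Of 17 complex I assembly factors, 6 were higher in A549 and 4 in H23, with a median log2 fold of 0.069. TMEM70 had the largest fold, at 17.5, 12.8 and 13.9 CPM in H23 and 40.6, 38.1 and 41.5 CPM in A549 (log2 fold 1.44 ± 0.13; edgeR adjusted p = 6.82e-05), and NDUFAF7 had the largest fold in the H23 direction, at -0.88. Of 4 complex II assembly factors, SDHAF1 and SDHAF2 were higher in A549 and SDHAF4 in H23; SDHAF2 passed narrowly (0.23 ± 0.091, edgeR adjusted p = 0.0495) and was lost without H23 replicate 3 or any A549 library (0.0649 to 0.136), with the replicate block (0.126), with upper quartile factors (0.336) and without a filter (0.0576), and turned to -0.30 on log2(TPM + 1), and SDHAF1 was lost there, at 0.17. SDHAF4, which acts on flavinated SDHA, was at 9.56, 8.79 and 8.17 CPM in H23 and 2.49, 2.48 and 1.77 CPM in A549 (log2 fold -1.97 ± 0.17; edgeR adjusted p = 4.62e-05). Of 6 complex III assembly factors, 3 were higher in each line, with LYRM7 at 1.38 and UQCC3 at 1.34 against UQCC2 at -1.25 and UQCC1 at -1.23. LYRM7 helps mature the Rieske protein UQCRFS1, which was also higher in A549, and a link between them was not tested. BCS1L, of the same list, was higher in H23, at -0.65 (edgeR adjusted p = 0.000506). Of 24 complex IV assembly factors, 8 were higher in A549 and 10 in H23, with a median of -0.237, led by COX11 at 1.12 and SCO2 at 1.12 in A549 and by COX19 at -1.28 and SURF1 at -1.27 in H23.

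Genes around coenzyme Q and cytochrome c went in both directions. Of 20 genes for cytochrome c, electron-transfer flavoproteins, other dehydrogenases that feed coenzyme Q and coenzyme Q synthesis, 9 were higher in A549, 4 were higher in H23 and 7 did not pass, against the same 37.6% and 39.6% of all genes, with a median log2 fold of 0.288. SQOR, which passes electrons from sulphide to coenzyme Q, was at 35.2, 40.8 and 39.4 CPM in H23 and 104, 104 and 106 CPM in A549 (log2 fold 1.45 ± 0.088; edgeR adjusted p = 8.34e-06). ETFA was at 115, 80.00 and 91.98 CPM in H23 and 232, 240.2 and 234 CPM in A549 and COQ6 at 36.1, 41.9 and 39.7 CPM in H23 and 21.4, 20.8 and 19.8 CPM in A549, ETFA higher in every A549 library and COQ6 in every H23 library. CYCS, cytochrome c itself, had 362, 168 and 177 CPM in H23 and 319, 313 and 307 CPM in A549 and did not pass (log2 fold 0.41 ± 0.29; edgeR adjusted p = 0.236); without H23 replicate 1 it passed as higher in A549, at 0.85 (adjusted p = 1.87e-15).

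Regulators of mitochondrial gene expression went in both directions. The list of 15 holds factors that act on nuclear genes for mitochondrial proteins and factors that copy or transcribe mitochondrial DNA. Of the 14 tested, 6 were higher in A549, 5 were higher in H23 and 3 did not pass, where 39.6% of all genes tested were higher in H23 and 37.6% in A549. GABPB1, a subunit of the ETS factor GABP, was at 21.1, 17.01 and 17.5 CPM in H23 and 53.6, 53.2 and 57.4 CPM in A549 (log2 fold 1.56 ± 0.11; edgeR adjusted p = 1.85e-05), and GABPA, its DNA-binding partner, at 24.99, 10.99 and 10.2 CPM in H23 and 33.6, 33.9 and 31.2 CPM in A549. TFAM, which packs mitochondrial DNA and starts its transcription, was at 79.2, 45.5 and 51.8 CPM in H23 and 140.1, 138 and 132 CPM in A549 (log2 fold 1.22 ± 0.20; edgeR adjusted p = 0.00125). All 3 were higher in every A549 library, and GABPA in H23 replicate 1 lay well above the other H23 libraries. The GABPA call (edgeR adjusted p = 0.0217) was lost on log2(TPM + 1) (0.0892) and without H23 replicate 2, H23 replicate 3, A549 replicate 1 or A549 replicate 2 (0.0548 to 0.0677). The coactivator PPARGC1B was at 14.1, 15.1 and 14.4 CPM in H23 and 5.82, 6.27 and 7.16 CPM in A549 (log2 fold -1.18 ± 0.12; edgeR adjusted p = 8.13e-05), and NRF1 at 24.4, 29.6 and 30.5 CPM in H23 and 18.99, 17.9 and 18.5 CPM in A549 (log2 fold -0.61 ± 0.11; edgeR adjusted p = 0.00213). Both were higher in every H23 library, and PPARGC1A stayed at or below 0.0941 CPM in all 6.

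Other mitochondrial proteins were higher in either line. Of 23 listed genes of the matrix, import and membrane shaping, 6 were higher in A549, 9 were higher in H23 and 8 did not pass, where 39.6% of all genes tested were higher in H23 and 37.6% in A549, with a median log2 fold of -0.119. CS, citrate synthase, was at 337, 380.5 and 375 CPM in H23 and 126, 116 and 118 CPM in A549 (log2 fold -1.60 ± 0.085, edgeR adjusted p = 4.78e-06). OPA1, which fuses inner membranes, was at 83.01, 31.4 and 31.3 CPM in H23 and 136, 139.5 and 132 CPM in A549, with H23 replicate 1 apart from the other 2, and TIMM50, an import receptor, at 95.6, 98.1 and 94.8 CPM in H23 and 203, 210.3 and 200.2 CPM in A549. CS lay higher in every H23 library, and OPA1 and TIMM50 lay higher in every A549 library.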

How the data were processed

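Total RNA of 3 cultures per line was depleted of ribosomal RNA, made into stranded libraries and sequenced, per the labels' protocols. Reads were processed with STAR 2.6.0c and RSEM 1.3.0 on hg19, per the submitters' processing notes; strand setting and annotation release are not given in the sources used here. The authors deposited RSEM expected counts, TPM and lengths per RefSeq gene and isoform percentages (percent of a gene's transcripts) per transcript, per the file headers. RSEM divides reads that fit several genes or transcripts, so near-identical genes are uncertain.

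Expected counts were rounded, filtered with filterByExpr and tested with edgeR 4.0.16 (TMM factors 0.985 to 1.02, robust quasi-likelihood, Benjamini-Hochberg over 15426 genes, threshold 0.05) in R 4.3.3, with all 6 libraries and no covariate. SE is the log2 fold divided by the square root of F. The scripts were tested on simulated data drawn with 1 spread for all genes. There the test found 6 of 50 genes with a log2 fold of size 0.5 and 47 of 50 with size 1. A gene that did not pass is therefore not shown to be equal between the lines. P-values measure the spread between these cultures only. Alternatives were upper quartile factors, no filter, removal of a length trend, the replicate block, DESeq2 1.42.0, limma 3.58.1 on log2(TPM + 1) and log2(TPM + 0.1), and each library left out; the rescaling of TPM to genes with protein-coding transcripts was chosen after seeing the data.

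The members and gene lists were chosen with earlier results of these data known. Named with all values were core subunits, detected paralogs, up to 3 members per complex and direction with the largest fold among those called, members called with at least a 2-fold difference, and members that did not pass; other members named were picked after their values were seen. From the other lists up to 3 called genes per direction were named, plus CYCS and PPARGC1A, picked after their values were seen. One member is counted with the others but is not reported here by name. The floor of 3 counts covers counting error only, while SE and SD include the spread between cultures.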

Additional observations from a re-analysis of the deposited data

How the results depend on the processing

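Of the 48 named and tested members, 22 kept their direction and their side of the threshold under every alternative tried, and 20 of these were called. Members called higher in A549 (8) came to 14 with the length trend removed, 2 on log2(TPM + 1) or log2(TPM + 0.1), 14 on TPM rescaled to genes with protein-coding transcripts, and 6 to 15 with 1 library left out, 15 being without H23 replicate 1. The members' median (-0.495) was -0.625 with upper quartile factors, -0.265 with the length trend removed, -0.959 and -0.964 on the 2 TPM scales, -0.267 on rescaled TPM and -0.573 to -0.311 with 1 library left out. Members higher in H23 (39) ranged from 31 to 55, within 1.5 times. The A549 to H23 ratios of summed CPM (0.598, 0.578, 0.846 and 0.622 for complexes I to IV) became 0.441, 0.367, 0.474 and 0.460 on the deposited TPM and 0.714, 0.595, 0.768 and 0.745 on rescaled TPM.

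Single genes changed sign as follows, and the cause was not tested. With upper quartile factors CYC1 stood at -0.069, NDUFA8 at -0.05 and NDUFB7 at -0.125. Without a filter NDUFB11 stood at 0.003. With the length trend removed NDUFA2 stood at 0.104, NDUFA3 at -0.485, NDUFB10 at 0.186, NDUFB8 at 0.147, NDUFB11 at 0.350, NDUFS3 at 0.014, NDUFV3 at 0.189, SDHD at 0.161, UQCR10 at 0.076, UQCRC2 at 0.089 and UQCRQ at 0.116. On log2(TPM + 1) and log2(TPM + 0.1) COX8A stood at -0.25 and -0.25, SDHAF2 at -0.299 and -0.307, CYCS at -0.051 and -0.051, CYC1 at -0.476 and -0.478, NDUFA3 at -0.206 and -0.207, NDUFA8 at -0.437 and -0.441, NDUFB7 at -0.505 and -0.507, NDUFS1 at -0.376 and -0.381, NDUFS4 at -0.033 and -0.033, and UQCRC1 at -0.325 and -0.327. On rescaled TPM NDUFA5 stood at 0.217, NDUFB11 at 0.148, NDUFV3 at 0.021, SDHD at 0.001, UQCRB at 0.133 and UQCRC2 at 0.046. With 1 library left out NDUFA5 ran from -0.234 to 0.475, NDUFA8 from -0.018 to 0.202, NDUFB11 from -0.052 to 0.053, NDUFB7 from -0.036 to 0.045, NDUFC2 from -0.413 to 0.089, SDHD from -0.292 to 0.016 and UQCRB from -0.187 to 0.218.

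With the replicate block, 6 members were higher in A549 and 38 in H23, COX8A, UQCRC1, NDUFB8 (-0.22, adjusted p = 0.0853) and the assembly factor SDHAF2 (0.23, adjusted p = 0.126) lost their call, and NDUFA5 stood at 0.093. Same-numbered libraries correlated at 0.082, -0.101 and 0.149 in their deviations from the line means, and not every library correlated best with its own number. Deviations from a mean of 3 libraries depend on each other, and H23 replicate 1 stood apart from its sister libraries. The check therefore cannot decide whether same-numbered cultures belong together.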

Other observations

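The symbols left out for lack of a protein-coding transcript were NDUFA6-AS1, NDUFB2-AS1, NDUFV2-AS1 and UQCRBP1. NDUFA6-AS1, an antisense RNA, was at 1.93, 2.54 and 2.73 CPM in the H23 libraries and 0.499, 0.959 and 0.992 CPM in the A549 libraries (log2 fold -1.55 ± 0.29; edgeR adjusted p = 0.00234). NDUFB2-AS1 was at 0.66, 1.002 and 0.871 CPM in H23 and 0.374, 0.28 and 0.129 CPM in A549 (log2 fold -1.66 ± 0.38; edgeR adjusted p = 0.0056). Both were higher in every H23 library, in the same direction as the genes they lie against, and the strand setting of the counting is not given in the sources used here, so reads of a gene and its antisense partner may not be told apart. NDUFV2-AS1 and UQCRBP1 were too low to be tested, NDUFV2-AS1 at 0.159, 0.2 and 0.259 CPM in H23 and 0.291, 0.2 and 0.0431 CPM in A549 and UQCRBP1 at no more than 0.0799 CPM in any library.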
